A study of Mus musculus with 202 samples.

Results

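A flow sorter split a mouse line of pancreatic ductal adenocarcinoma by surface E-cadherin, and the cells described here are those of its negative fraction, written Ecad- below. They were chosen by sample label alone, as every library whose title begins with Ecad-, which gave 98 of the 202 libraries of the series; the remaining 104 libraries come from E-cadherin positive (Ecad+) cells of the same line. The line is of the KPC type, taken from a liver metastasis and labelled male, and was grown in DMEM with 10% FBS at passages 4 to 6. Cells were detached with trypsin and stained with an antibody against E-cadherin. They were then captured singly on a Fluidigm C1 chip, where SMARTer reagents amplified the total RNA, and Nextera XT was used for the libraries. The labels name no drug for either fraction. Because they name no separate cultures or mice either, the Ecad- cells are 1 sample of 1 line: values over cells describe the spread within it, and no p-value is given. The Ecad- libraries fall into 3 sets by the suffix of their library names, with 33, 32 and 33 libraries; the labels leave the meaning of the suffix unsaid.

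E-cadherin, the product of Cdh1, holds epithelial cells together at adherens junctions, and carcinoma cells can lose it from the surface by lower transcription, by internalisation or by cleavage. Tumours of the KPC type can hold cells of epithelial and of mesenchymal character side by side. Of the markers given for this population, Ddit3 and Ppp1r15a belong to the integrated stress response. In it, kinases that sense amino acid shortage, protein misfolding or other stress slow translation through eIF2 alpha. At the same time they favour the translation of ATF4, a transcription factor for amino acid synthesis, transport and stress genes.

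In the 98 libraries the number of genes with a value above 0 ran from 4168 to 12051 with a median of 8704.5, and the medians were 9166, 8730.5 and 8418 in sets 1, 2 and 3. Read depth is unknown, because the values, TPM (a transcript's length-corrected share of its cell's RNA), do not keep it. The share of TPM from mitochondrially encoded genes ran from 0% to 66.4%, with medians of 21.2%, 12.6% and 0.194% in the sets. It lay under 1% in 6 of 33, 12 of 32 and 22 of 33 libraries, so that low shares were most frequent in set 3. A library of set 1 and one of set 2 had log2 values correlated at r = 0.984, while the next closest pair reached 0.892; the pair was averaged and counted once, which leaves 97 cells for pooled levels. In Ecad+ cells 4 such pairs left 100 cells. The mitochondrial share of that pair was 37.5% in one library and 11.4% in the other, a wide gap for libraries so alike. Co-variation was measured within each set on values rescaled without mitochondrial genes.

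The sort was on protein, and its gene was detected in most of the cells. Cdh1 (chr8:106603351-106670246, mm10) was above 0 in 78 of 97 Ecad- cells, with a lowest value of 0, a median of 11.5 and a highest value of 116 TPM. Within sets 1, 2 and 3 its medians were 14.9, 20.3 and 2.27 TPM, and it was above 0 in 29 of 33, 29 of 32 and 21 of 33 libraries. Cells of set 3 were thus the ones in which Cdh1 was most often listed at 0. In Ecad+ cells the lowest, median and highest values were 3.70, 35.1 and 131 TPM, and the ranges of the fractions overlapped.

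The 4 markers given for the population were present in it, but not in every cell. Ddit3 (chr10:127290774-127296288), which encodes CHOP, a transcription factor of the late stress response, ran from 0 over a median of 264 to 4418 TPM and was above 0 in 87 of 97 cells. Ppp1r15a (chr7:45522916-45526268), which encodes GADD34, the phosphatase subunit that restores translation, ran from 0 over 118 to 2711 TPM, above 0 in 90 cells. Hexa (chr9:59539540-59565109), a lysosomal hexosaminidase subunit, had a median of 19.7 and a highest value of 1261 TPM, above 0 in 65 cells. Snai2 (chr16:14705852-14709385), which encodes the transcription factor SLUG, had a median of 0.578 and a highest value of 181 TPM, above 0 in 59 cells. With 50 TPM as the line, 12 of 97 cells held all 4 markers, 23 held 3, 33 held 2, 13 held 1 and 16 held none. These counts depend on the line: at 10 TPM 29 cells held all 4 and 5 none, and at 100 TPM 3 and 27. The plot of single-cell levels shows how the cells spread between these extremes.

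**Figure D1:**
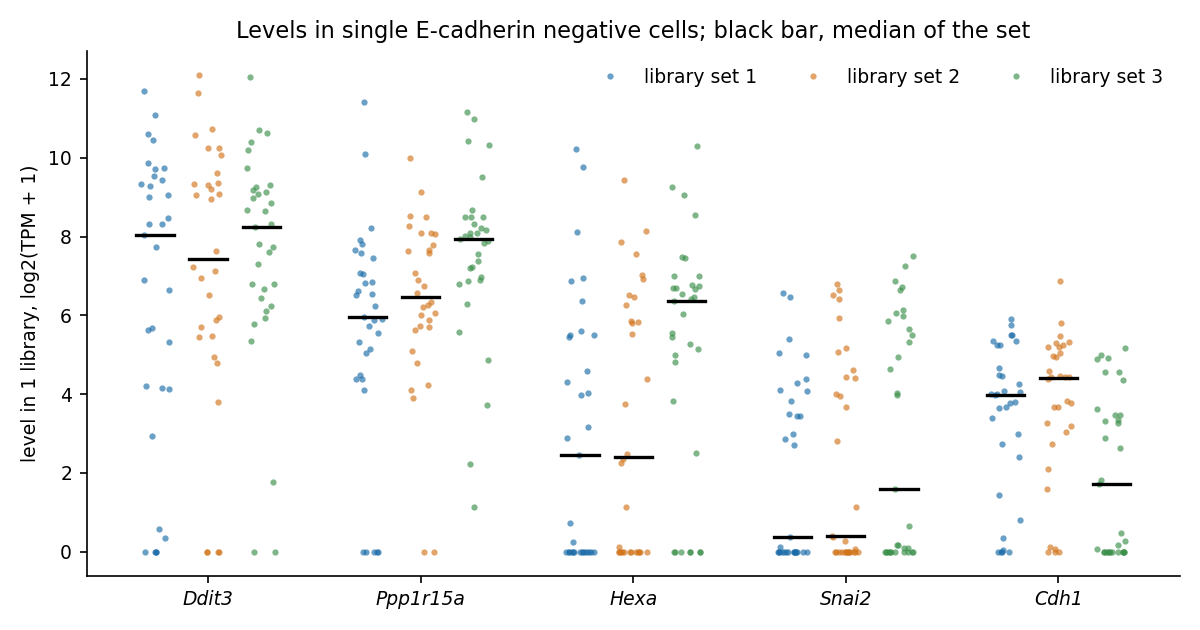
Levels of the 4 given markers and Cdh1 in single Ecad- libraries, as log2(TPM + 1) on the vertical axis, by library set; each point is 1 library and each black bar the median of the set. Ddit3 and Ppp1r15a were above 0 in most cells. Hexa and Snai2 ran from many cells at 0, through some just above 0, to cells with clear levels. Cdh1 was most often at 0 in set 3.

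Low mitochondrial share went with higher levels of these markers on TPM as deposited. On that scale a larger mitochondrial share leaves less of the total for all other genes. Medians on values rescaled without mitochondrial genes are not given here. Ddit3 had a median of 601 TPM in the 40 libraries with a share under 1% and 58.8 TPM in the other 58; for Hexa the medians were 88.6 and 0.0471 TPM, for Ppp1r15a 263 and 64.7 TPM, and for Snai2 17.3 and 0 TPM. Ddit3 showed this in each set, with medians of 1242, 1141 and 433 TPM in low-share libraries and 99.7, 54.5 and 59.7 TPM in the others. The ranges of both kinds of library overlapped for each marker. The part of the mitochondrial share, or of RNA quality, in these levels was not tested.

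The cells carried markers of carcinoma and lacked those of most other cell types a liver metastasis could hold. Of 11 ductal and carcinoma markers, 9 had a mean of at least 5 TPM, and the sum of the list ran from 79.6 over a median of 2035 to 12575 TPM. Krt8 and Krt18, the paired keratins of simple epithelium, were above 0 in 96 of 97 cells each, with medians of 284 and 874 TPM. Krt19, the ductal keratin, was above 0 in 83 cells, with a median of 158 TPM. None of 13 fibroblast and stellate cell markers reached a mean of 5 TPM, their summed level had a median of 0.104 and a highest value of 27.4 TPM, and Col3a1, Lum, Des, Thy1 and Postn were at 0 in every cell. None of 9 endothelial markers and none of 14 acinar and endocrine markers reached 5 TPM, and the acinar and endocrine sum was 0 in 76 of 97 cells. Among 21 immune markers Cd68, Cd14 and S100a8 reached a mean of 5 TPM (30.0, 36.6 and 11.7 TPM), while Ptprc, Adgre1 and Tyrobp were at 0 in every cell. Apob and Ttr were the hepatocyte markers past that mean (9.11 and 10.6 TPM), and Fga, Fgb and Apoc3 were at 0; Ttr was above 0 in 13 cells, with 642 TPM in the highest. The summed immune markers ran from 0 over 50.1 to 482 TPM in Ecad- cells and from 0.379 over 50.4 to 334 TPM in Ecad+ cells.

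Genes that define mesenchymal cells were present at uneven levels. Vim, an intermediate filament of mesenchymal and many cultured cells, was above 0 in 94 of 97 cells, with a median of 199 TPM and a highest value of 1184 TPM. Axl, a receptor kinase, had a median of 11.2 TPM, and Cdh2, the neuronal cadherin, had a median of 1.01 TPM. Of 35 mesenchymal genes 5 passed the floor for testing (a mean of 5 TPM and a value above 0 in 25% of the libraries of each set): Vim, Axl, Cdh2, S100a4 and Snai2. Among these, 0 of 5 correlated at 0.3 or more with the rest in each set, where 1.53% of all 7051 tested genes did so with that score. Snai2 had r with the score of the other 4 of -0.02, -0.41 and 0.01 in sets 1, 2 and 3.

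By level, the transcriptome was led by mitochondrial, ferritin, osteopontin and translation transcripts. The 20 genes with the highest mean held 29.4% of all TPM, the top 100 held 44.8% and the top 1000 held 78.5%. mt-Atp8, a subunit of ATP synthase, led with a mean of 116859 TPM and a spread from 0 over 65707 to 568510 TPM. The genes mt-Atp6, mt-Co3 and mt-Co2 were also in the top 20. By mean level mt-Atp8 held 12.1% of TPM, beside 0.780%, 0.742% and 0.499% for these genes. The mitochondrial share used here thus rests mostly on mt-Atp8. TPM is corrected for transcript length, and the part of that correction in this level was not tested. Among nuclear genes with a proper symbol, Ftl1, the ferritin light chain, came first with a mean of 12323 TPM (from 1726 over 9756 to 62155), ahead of Atp5j, another ATP synthase subunit, at 11627 TPM. The ferritin heavy chain Fth1 had a mean of 6911 TPM. Spp1, which encodes osteopontin, a secreted matrix phosphoprotein, had a mean of 6365 and a median of 1481 TPM, so its mean lay far above the middle cell. S100a6, a calcium-binding protein, Eif1, a start codon selection factor, the actin-binding Tmsb4x and Smim20, a small mitochondrial protein, were also in the top 20. 6 of the top 20 (Gm9385, Gm10443, Gm10177, Gm20430, Gm10123 and Gm1821) are gene models without a proper name, and Rpl38-ps2 is a ribosomal pseudogene; such copies can take reads from their parent genes, so their values are uncertain. In level, Ftl1, Fth1 and Eif1 ranked 4, 9 and 14 here, and 18, 32 and 34 among Ecad+ cells. The sets shared 12 genes in their top 20 and 62 in their top 100. 481 genes were above 0 in every cell, 2802 in at least 90% of cells, and 8114 of 28987 were at 0 throughout.

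Named genes that varied more between cells than others of their level were led by Smim20, Lgals2 and Lgals4. A gene was counted as variable in a set when its SD, less the running median SD of genes of like level, was in the top 5%. By that count 108 of 7051 tested genes (1.53%) were variable in each set, 93 of them with a proper symbol, and 273 in at least 2 sets. Smim20 came first: its SDs were 4.19, 3.76 and 4.56 on the log2 scale, it was at 0 in 11 of 97 cells, and its highest value was 16856 TPM. Lgals2 and Lgals4, galectins of the digestive epithelium, followed, with medians of 49.6 and 56.0 TPM and highest values of 5913 and 2657 TPM. These galectins varied together, with r of 0.86, 0.83 and 0.61. Muc1, the membrane mucin, Ly6a, which encodes the surface antigen SCA-1, Tm4sf4, a tetraspanin-like membrane protein, and Spp1 came next. The rest of the top 20 were Gsta4, a glutathione transferase, Mycbp, the histone gene Hist1h2bc, Il1rn, the interleukin 1 receptor antagonist, Insig2, a brake on cholesterol synthesis, Slc25a12, Ifrd1, Crip1, the annexins Anxa1 and Anxa13, Sprr1a, Plac8 and Clu, the secreted chaperone clusterin.

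**Figure D2:**
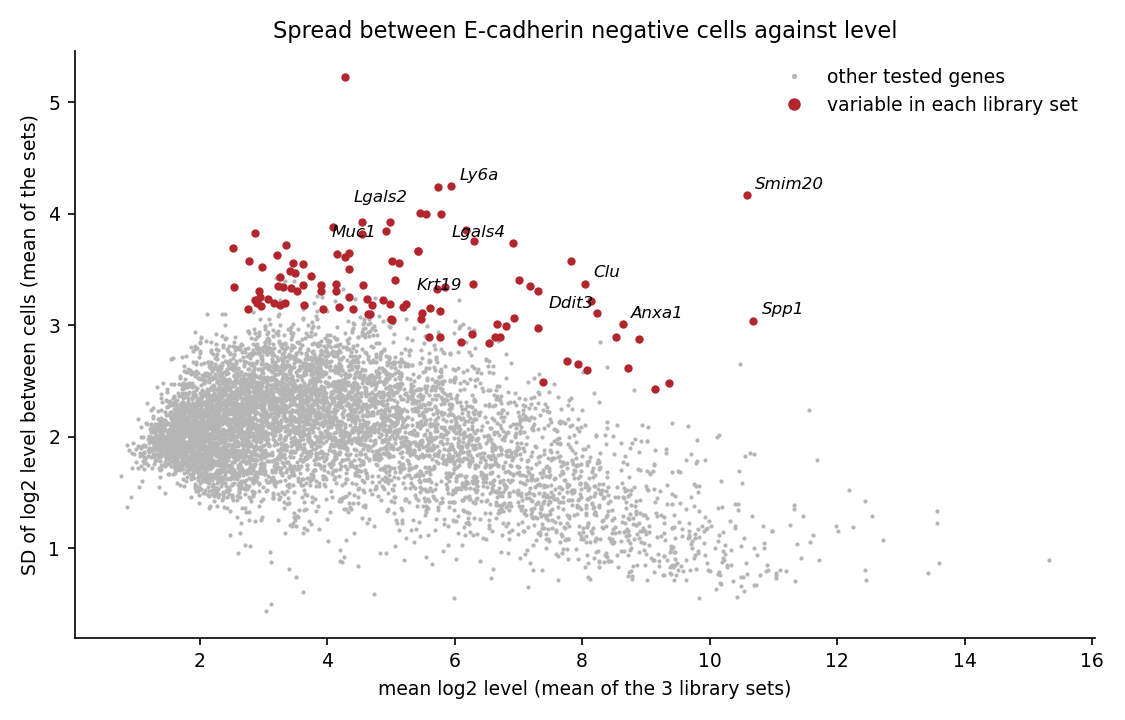
Spread between Ecad- cells (vertical axis, SD of log2 values) against mean log2 level (horizontal axis), both averaged over the 3 library sets, for 7051 tested genes; red points mark the 108 genes variable in each set. Smim20 and Spp1 stand out at high level, and Lgals2, Lgals4, Ly6a and Muc1 at intermediate level; the highest point is the unnamed gene model Gm10197.

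Set beside that 1.53%, 5 of 27 stress response genes were variable in each set (Ddit3, Nupr1, Asns, Cth and Atf3), as were 4 of 35 G2/M genes (Smc2, Birc5, Cdk1 and Ccnb1) and 3 of 19 epithelial genes (Muc1, Krt19 and Krt7). 0 of 47 lysosomal genes, 0 of 71 ribosomal protein genes, 0 of 33 endoplasmic reticulum chaperone genes and 0 of 20 aminoacyl-tRNA synthetase genes were, and lists of this size would hold few or none at the background share. Counted in at least 2 sets, 5 of 47 lysosomal genes were variable (10.6%), beside 3.87% of all tested genes. The median SD was 0.876, 0.885 and 0.980 for ribosomal protein genes and 2.02, 2.04 and 2.18 for all tested genes, on the log2 scale. Genes of high level had small SDs in general, and the ribosomal SD less the running median at its level was -0.17 on the median. The steadiest genes for their level within a set were Grip2, Thg1l and Zrsr1, with SDs between 0.334 and 0.785. Between sets Grip2 was not steady, with mean log2 levels of 4.19, 2.45 and 2.50, and of 4.44, 2.85 and 2.60 in Ecad+ cells.

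Co-variation was measured as Pearson's r across cells within a set, on log2 values after each cell was rescaled to 1000000 without mitochondrial genes; 3 values in a row below are sets 1, 2 and 3, over 33, 32 and 33 libraries. These values are descriptions with no test: the cells of a set share whatever its suffix stands for, and cells with more genes above 0 can be higher in many genes at once. Over all pairs of the 7051 tested genes the median r was 0.09, 0.03 and 0.07. A list is described by the median r over its pairs and by how many members correlated at 0.3 or more, in each set, with the mean z-score of the other members; the share of all tested genes that did so is printed beside it.

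Genes of the integrated stress response varied together from cell to cell. Its 27 tested genes had a median pair r of 0.39, 0.19 and 0.32, and 17 of 27 followed the rest in each set, where 2.03% of all tested genes did. Asns, asparagine synthetase, was the closest member on average, at 0.88, 0.59 and 0.81, and ran from 0 over a median of 352 to 2048 TPM. Trib3, a pseudokinase that feeds back on ATF4, followed at 0.64, 0.63 and 0.82, Slc7a11, the cystine importer, at 0.66, 0.60 and 0.77, and Gdf15, a secreted stress hormone, at 0.66, 0.62 and 0.61. Chac1, which degrades glutathione, the amino acid transporter genes Slc7a1, Slc7a5 and Slc3a2, the mitochondrial folate enzymes Shmt2 and Mthfd2, and the regulators Atf3, Cebpb, Jdp2, Ddit3 and Atf4 were also among the 17. Trib3 and Chac1 were above 0 in 56 and 54 of 97 cells, while Atf4 itself was above 0 in 95 cells, with a median of 193 TPM. Pck2, the mitochondrial PEP carboxykinase, followed least on average, at 0.48, -0.13 and 0.48. Ppp1r15a, at 0.67, 0.29 and 0.22, missed the line in sets 2 and 3. The stress response score correlated with the mitochondrial share at -0.29, -0.45 and -0.57 and with the number of genes above 0 at 0.67, 0.25 and 0.26. On TPM as deposited, Asns had a median of 461 TPM in libraries with a share under 1% and 168 TPM in the others. The part of the mitochondrial share and of the number of genes above 0 in the co-variation was not tested.

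Some promoters of this list held the element that ATF4 and C/EBP factors are known to bind. It is shown for the 5 members that followed the score most closely among those with a match, and for 3 synthetase genes. The list is made of genes of the response that ATF4 drives, so its share of matches is no independent test. TGATGNAA was searched on both strands in the 250 bases before the RefSeq gene start (GRCm38.p6). It was found for 10 of 29 list genes with a promoter in the table (34.5%) and for 7 of the 16 among the 17 followers (43.8%), against 3.91% of 27025 genes in the table and 2.44% of the tested ones. Capitals mark the match, which reads TGATGNAA on the strand shown or on the other. The stretches lie at chr3:50443633-50443699 (minus strand), chr6:7693210-7693252 (minus), chr2:119351029-119351076 (plus), chr1:191183416-191183463 (minus), chr19:27216800-27216847 (plus), chr15:11399659-11399693 (minus), chr8:111033710-111033757 (plus) and chr6:55037951-55037998 (plus), in the order printed, 5′ to 3′ on the gene's strand.
Slc7a11: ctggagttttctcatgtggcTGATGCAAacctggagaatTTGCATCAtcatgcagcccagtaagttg
Asns: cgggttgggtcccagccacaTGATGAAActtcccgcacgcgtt
Chac1: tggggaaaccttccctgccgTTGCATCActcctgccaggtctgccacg
Atf3: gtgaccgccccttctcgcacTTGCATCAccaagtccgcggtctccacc
Vldlr: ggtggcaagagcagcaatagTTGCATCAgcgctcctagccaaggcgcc
Tars: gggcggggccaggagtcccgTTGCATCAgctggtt
Aars: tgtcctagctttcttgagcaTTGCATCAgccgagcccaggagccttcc
Gars: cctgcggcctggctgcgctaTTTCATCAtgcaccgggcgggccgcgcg

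Slc7a11 held 2 matches, facing each other, and the others shown 1 each. Slc7a11 and Asns carry theirs close to the start, and Chac1 and Vldlr farther upstream. A match is a description of these letters and not of binding. Outside the list, 126 genes followed the stress response score at 0.3 or more in each set, and 6 of the 91 with a promoter held the motif (6.59%): Aars, Gars, Tars, Got1, Arl14ep and Nol12. Got1 makes aspartate, the precursor that asparagine synthetase uses.

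Genes that charge tRNAs varied with the stress response. The 20 synthetase genes, which load tRNAs with amino acids, shared no member with the stress list, and their score correlated with it at 0.87, 0.59 and 0.91. Within the list 9 of 20 followed the others, against 4.11% of tested genes, led by Eprs, Rars, Nars and Tars; Qars followed least on average, at 0.15, -0.13 and 0.20. The genes outside the list closest to the synthetase score were Cth and Shmt2, both on the stress list, for cysteine and glycine synthesis, at 0.67, 0.66 and 0.72 and at 0.64, 0.71 and 0.70. In Ecad+ cells the same relation of the scores was 0.85, 0.78 and 0.66. The stress score also correlated with that of endoplasmic reticulum chaperones and the unfolded protein response, at 0.77, 0.26 and 0.68, with set 2 the lowest. In that list 9 of 33 followed the others, against 1.56% of tested genes: Hspa5, the main chaperone of the reticulum, P4hb and Pdia4, which form disulphide bonds, and Edem1, for disposal of misfolded glycoproteins, were the closest.

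Snai2 was among the genes outside the list that followed the stress score most closely. Its r was 0.69, 0.57 and 0.72, beside Eif3c at 0.63, 0.61 and 0.74, Ndrg1, a stress- and hypoxia-induced gene, at 0.71, 0.60 and 0.66, and Psph, the last enzyme of serine synthesis, at 0.59, 0.62 and 0.76. Among libraries with a mitochondrial share of at least 1% the Snai2 relation was 0.69, 0.51 and 0.88, over 27, 20 and 11 libraries, and after a fit on the number of genes above 0 it was 0.51, 0.53 and 0.74. Genes closest to Snai2 itself were Aldh18a1, for proline synthesis, Slc25a33, Cyb5r1, Angptl6, Ttc4, Gadd45a, a growth arrest gene, Mtm1 and Rhbdd1. Those most opposed were Npnt, Lgals9 and Lgals2. SLUG is known as a repressor of Cdh1. The r of Snai2 with Cdh1 was 0.14, 0.11 and -0.07 here, and -0.46, -0.09 and -0.52 in Ecad+ cells. Among Ecad- libraries with a mitochondrial share of at least 1% it was 0.14, -0.03 and -0.58. In Ecad+ cells 1 of 104 libraries had a share under 1%, so the fractions are set side by side at unlike shares.

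Ddit3 and Ppp1r15a followed each other, and Ddit3 followed Ndrg1 and Sqstm1 most closely. The genes closest to Ddit3 were Ndrg1 (0.62, 0.62 and 0.68) and Sqstm1, the autophagy receptor p62 (0.58, 0.63 and 0.68), then Pias1, Tbpl1, Cstb, Sars, Zfand2a and Gdf15. In all, 123 genes correlated with Ddit3 at 0.3 or more in each set and 48 at -0.3 or less. The most opposed were Scd2, a fatty acid desaturase (-0.53, -0.66 and -0.60), Crip1 and Lgals2. Sqstm1 ran from 0.696 over 619 to 6273 TPM and also followed Ndrg1 and Eif1. Ppp1r15a was closest to Cnppd1 (0.75, 0.67 and 0.53), Plcxd2, Ccnt1 and Ddit3 (0.61, 0.54 and 0.44), and was again opposed to Scd2. Ddit3 and Hexa correlated at 0.54, 0.46 and 0.34, and at 0.40, 0.11 and 0.42 among libraries with a mitochondrial share of at least 1%. Among the given markers the median pair r was 0.52, 0.50 and 0.30, and 0.06, 0.00 and -0.01 in Ecad+ cells. In Ecad+ cells Hexa was above 0 in 52 of 100 cells and Snai2 in 49. The summed markers had a median of 41.6 TPM there and 583 TPM in Ecad- cells. A mitochondrial share under 1% was found in 1 of 104 Ecad+ and 40 of 98 Ecad- libraries. The markers were given for Ecad- cells, and the floor for testing used Ecad- libraries alone. This contrast was thus partly set by that choice.

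Lysosomal genes varied together, along with many genes outside the list. The list had a median pair r of 0.37, 0.25 and 0.26 over 47 genes, and 33 of 47 followed the others in each set; 7.3% of all tested genes did so too. The closest members were Atp6v0d1, Atp6v0b and Atp6v0e, subunits of the proton pump that acidifies the lysosome, and Ctsd, the aspartic protease cathepsin D (0.75, 0.67 and 0.74). Ctsd ran from 0.188 over 163 to 2365 TPM and was above 0 in all 97 cells, and Atp6v0b ran from 0 over 604 to 9639 TPM. Glb1, beta-galactosidase, did not follow, at 0.16, -0.04 and -0.23. Outside the list, Grn (progranulin), Ctns (the cystine exporter of the lysosome), Atp6ap2, Atp6v1f, Gnpda1, Abca5, Slc6a8 and Fam50a followed most closely. Hexa, a member of the list, had as its closest genes Bcas2, Ctns, Grn, Fnip1, a folliculin partner in nutrient sensing, Zfand2a, Vps26a, Slc25a44 and Sde2.

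The CLEAR core is the element that TFEB and its relatives bind before lysosomal genes and was searched here because this list is made of such genes. TCACGTG was searched as above. It stood before 11 of 41 list genes with a promoter (26.8%), 968 of 27025 genes in the table (3.58%) and 366 of 5174 tested genes (7.07%). Outside the list, 482 genes followed the score at 0.3 or more in each set, and 64 of the 351 with a promoter held the core (18.2%, exact 95% binomial interval 14.3 to 22.7). At 0.5 or more it was 15 of 49 (30.6%, interval 18.3 to 45.4), and among genes at -0.3 or less it was 1 of 38 (2.63%, interval 0.0666 to 13.8). The intervals treat genes as independent draws, which they are not. Among libraries with a mitochondrial share of at least 1% the share of genes was 15.3%, and after a fit on the number of genes above 0 it was 22.2%. The 64 genes include known lysosomal ones that were not on the list, Clcn7, Cln3, Dpp7, Ifi30, Lamtor1, Gnptg and Nagpa, and others such as Bcas2, Sde2, Vps26a, Rab5a and Atg3; these were named after they were seen. TCACGTG holds a CpG; the part of base composition in these shares was not tested. The 5 list members that followed most closely among those with a match are shown, with the match, which can overlap its own reverse complement, in capitals; they lie at chr4:117887330-117887386 (minus), chr7:142387899-142387946 (minus), chr11:54438084-54438130 (plus), chr2:164833740-164833772 (plus) and chr16:44139364-44139411 (minus). Counting both strands, Ctsd held 3 matches in its window, of which the 2 that overlap are shown.
Atp6v0b: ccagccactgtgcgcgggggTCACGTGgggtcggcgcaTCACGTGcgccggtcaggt
Ctsd: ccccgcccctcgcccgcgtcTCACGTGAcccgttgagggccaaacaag
Fnip1: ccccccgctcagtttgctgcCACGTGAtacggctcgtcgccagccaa
Ctsa: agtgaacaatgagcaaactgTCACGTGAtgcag
Atp6v1a: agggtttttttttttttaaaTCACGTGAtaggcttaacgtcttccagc

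**Figure D3:**
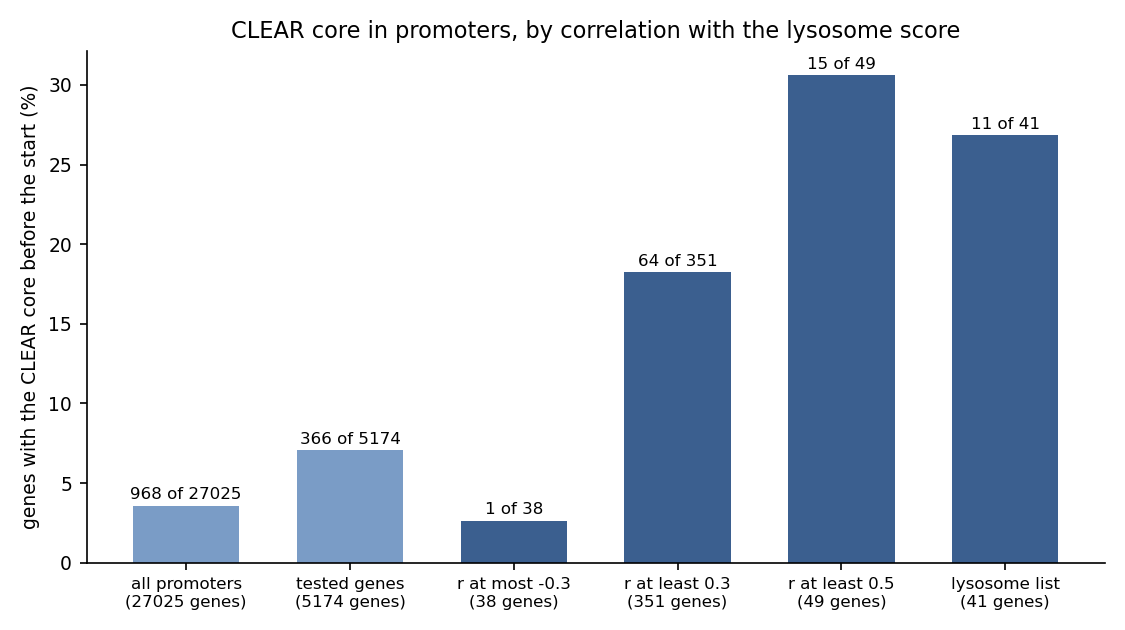
Share of genes (vertical axis, percent) with the CLEAR core in the 250 bases before the start, for all promoters in the table, tested genes, genes outside the lysosome list by their r with the lysosome score in each library set, and the list itself; counts stand above the bars. The share was 2.63% at r of -0.3 or less, 18.2% at 0.3 or more and 30.6% at 0.5 or more.

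Ribosomal protein genes varied together, and against the lysosomal genes once mitochondrial genes were left out of the scale. Their own list had a median pair r of 0.31, 0.33 and 0.25, with 50 of 71 following the others against 1.93% of tested genes, with Rps19, Rplp2 and Rpl32 among the closest. The lysosome and ribosomal scores correlated at -0.48, -0.52 and -0.42. On TPM as deposited, with mitochondrial genes in the total, the same r was 0.02, 0.01 and -0.14, so the opposition depends on the scale. On the rescaled values the 8 genes most opposed to the lysosome score, among those with proper symbols, were all for translation: Rplp2, Rps19, Rps25, Rps20, Rpl39, Rps15a, Rpl37a and the elongation factor Eef1b2. Hexa and Rps19 alone correlated at -0.51, -0.70 and -0.54, and at -0.35, -0.58 and -0.53 on TPM as deposited. The lysosome score also correlated with the mitochondrial share, at -0.72, -0.63 and -0.31. Among libraries with a share of at least 1% the lysosome and ribosomal scores correlated at -0.08, -0.65 and -0.62. In set 1 the opposition was thus not seen without its 6 libraries of lower share. These differed widely: 1 stood at 1.55 for the lysosome and -2.27 for the ribosomal score, and another at 0.91 and -1.04. Others among them had ribosomal scores of 0.82 and 0.32. The weight of single libraries in the r of set 1 was not tested. Stress and lysosome scores correlated unevenly, at 0.60, 0.38 and 0.16, and at 0.30, 0.32 and 0.01 after a fit on the number of genes above 0.

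**Figure D4:**
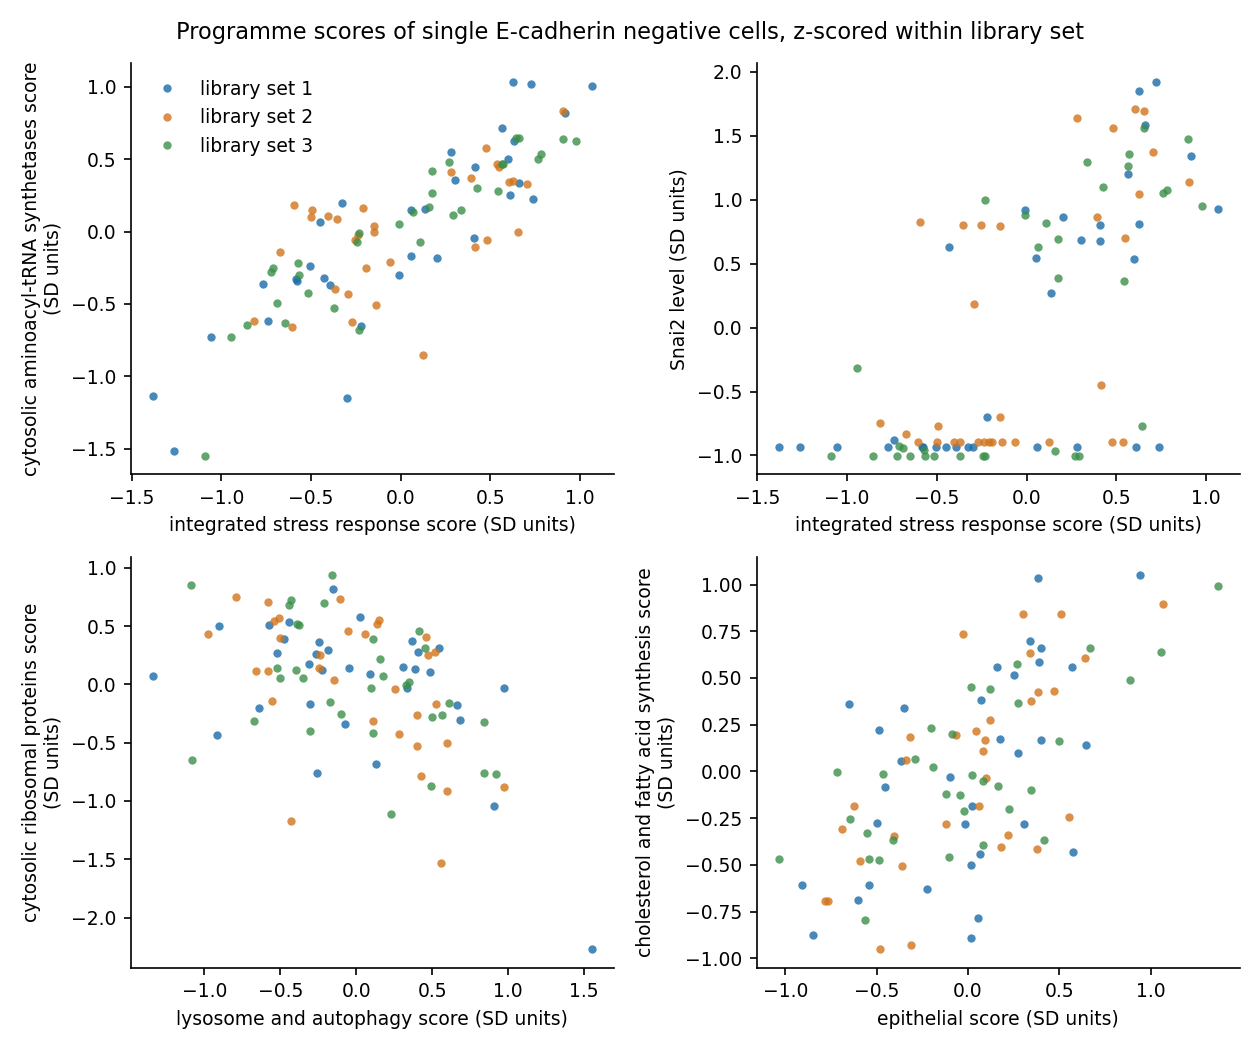
Per-cell scores (mean z-score of a list's members within the library set, in SD units), each point 1 Ecad- library, coloured by set: stress response against tRNA synthetases and against Snai2, lysosome against ribosomal proteins, and epithelial against cholesterol synthesis. The first pair correlated at 0.87, 0.59 and 0.91 in sets 1, 2 and 3, and the Snai2 panel shows a row of cells at or near 0 along the bottom.

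Of the 21 lists, G2/M genes had the highest median pair r. It was 0.63, 0.53 and 0.48, and 33 of 35 followed the others, against 2.71% of tested genes. Hmmr, a spindle protein (0.96, 0.87 and 0.87), Ndc80 and Cenpe, for kinetochore attachment, and Birc5, for chromosome passenger function, were the closest; Bub3 was the loosest at 0.14, 0.65 and 0.36. Most cells were low: Hmmr had a median of 0.410 and a highest value of 494 TPM, Cenpe a median of 0.0149 TPM, and Top2a, the topoisomerase of dividing cells, a median of 2.48 and a highest value of 510 TPM. G1/S genes had a median pair r of 0.30, 0.37 and 0.32, with 23 of 30 following the others against 3.77% of tested genes, led by Cdc45, Mcm5, Mcm3 and Prim1 for replication. The G1/S and G2/M scores correlated at 0.80, 0.77 and 0.78. Nupr1, a stress gene, and Jund were among the genes most opposed to Top2a, at -0.37, -0.49 and -0.45 and at -0.48, -0.54 and -0.39. The stress score correlated with the G2/M score at -0.04, -0.19 and -0.08.

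The CHR core, bound by the repressor and activator complexes of cell cycle genes, was searched as TTTGAA because the G2/M list is made of such genes. It stood before 18 of 44 G2/M genes with a promoter (40.9%) and before 12.7% of tested genes and 18.3% of all promoters in the table. Of the genes outside the list that followed the G2/M score at 0.3 or more in each set, 21 of 119 with a promoter held it (17.6%). CCAAT, which often stands nearby, was found for 35 of the 44 (79.5%), for 41.9% of tested genes, for 37.5% of all promoters and for 64 of those 119 genes (53.8%). The 3 members that followed most closely among those with a match lie at chr3:27153967-27154012 (minus), chr19:37376343-37376381 (plus) and chr11:99024190-99024232 (minus), with the match on either strand in capitals. Top2a held 2 matches in its window, of which 1 is shown.
Ect2: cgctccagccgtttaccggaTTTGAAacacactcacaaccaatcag
Kif11: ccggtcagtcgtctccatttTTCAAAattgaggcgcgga
Top2a: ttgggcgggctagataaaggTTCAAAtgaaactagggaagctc

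Epithelial differentiation and lipid synthesis varied together. Of 19 tested epithelial genes 8 followed the others, against 2.84% of tested genes, with Krt8 (0.60, 0.59 and 0.63), Krt7, the transcription factor Elf3 and Krt18 the closest and F11r the loosest on average. Of 27 genes for cholesterol and fatty acid synthesis 12 followed the others, against 2.79%, with Idi1 of the mevalonate pathway (0.64, 0.79 and 0.64), the desaturases Scd2 and Scd1, and Fdps the closest. The scores of these lists correlated at 0.54, 0.69 and 0.72. Outside the list the cholesterol score was followed by Clu, Wfdc2, Ucp2, Vsig1 and Lgals3bp, and the most opposed gene was Ddit3, at -0.41, -0.58 and -0.39. Krt19 was closest to Gsta4 (0.64, 0.69 and 0.73), Vsig1, Emp3 and Lgals2, and most opposed to Rbm48, Spata1 and Rragd, a nutrient-sensing GTPase. Targets of MAPK signalling, a growth factor pathway, followed the epithelial score at 0.54, 0.51 and 0.57; 5 of 13 followed each other against 2.69%, led by Phlda1, Spry1, Hbegf and Dusp6. Cdh1 correlated with the epithelial score at 0.39, 0.27 and 0.63, below 0.3 in set 2. No gene was left out of the score for these values, so any part of Cdh1 in it was kept. The genes closest to Cdh1 were Ier2, an immediate early gene (0.59, 0.67 and 0.57), and Nrn1 (0.49, 0.55 and 0.70).

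The main axis between cells ran from Gsta4, Wfdc2 and Vsig1 at one end to Ddit3 and Hexa at the other. In a principal component analysis of the 273 genes variable in at least 2 sets, centred within sets, component 1 took 15.5% of the variance. Its low end held Gsta4, Wfdc2, Vsig1, Lgals9, Anxa13, Krt19, Emp3, Lgals2, Lgals4 and Akr1c19. Its high end held Ddit3, Hexa, Hist1h4h, Gla, Cdkn1a, Gnpda1, Csn3, Hist1h4n, Dpp7 and Cxcl16, among them 3 lysosomal enzymes (Hexa, Gla and Dpp7) and the cell cycle inhibitor p21 (Cdkn1a). The 273 genes included 6 of 19 epithelial, 5 of 47 lysosomal, 4 of 27 oxidative stress and 7 of 27 stress response genes. The G2/M list gave 13 of 35, cholesterol and fatty acid synthesis 1 of 27, MAPK targets 1 of 13 and the mesenchymal list 1 of 5. Correlations of a component with the scores of these lists are thus partly built in. Component 1 correlated with the lysosome score at 0.49, 0.64 and 0.52 and with the epithelial score at -0.65, -0.55 and -0.69. The mesenchymal score had the same sign as the epithelial one, at -0.35, -0.47 and -0.37. Snai2, a member of the mesenchymal list, went the other way, at 0.32, 0.42 and 0.08. With the oxidative stress score component 1 correlated at -0.63, -0.78 and -0.65. It correlated with the score of cholesterol and fatty acid synthesis at -0.61, -0.75 and -0.55, with that of MAPK targets at -0.45, -0.73 and -0.59, and with the stress response score at 0.11, 0.38 and 0.21. It was little related to the number of genes above 0 (0.04, 0.03 and -0.03), but it was related to the mitochondrial share (-0.39, -0.58 and -0.75). Krt19 had a median of 20.5 TPM in libraries with a share under 1% and 329 TPM in the others, and Lgals2 0 and 398 TPM. Krt19 and Ddit3 correlated at -0.42, -0.46 and -0.36, and at -0.22, -0.30 and -0.47 among libraries with a share of at least 1%. Component 2 took 8.04% and was led by Aurka, Ccnb1, Sgol1, Hat1 and Birc5; it correlated with the number of genes above 0 at 0.68, 0.57 and 0.79.

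**Figure D5:**
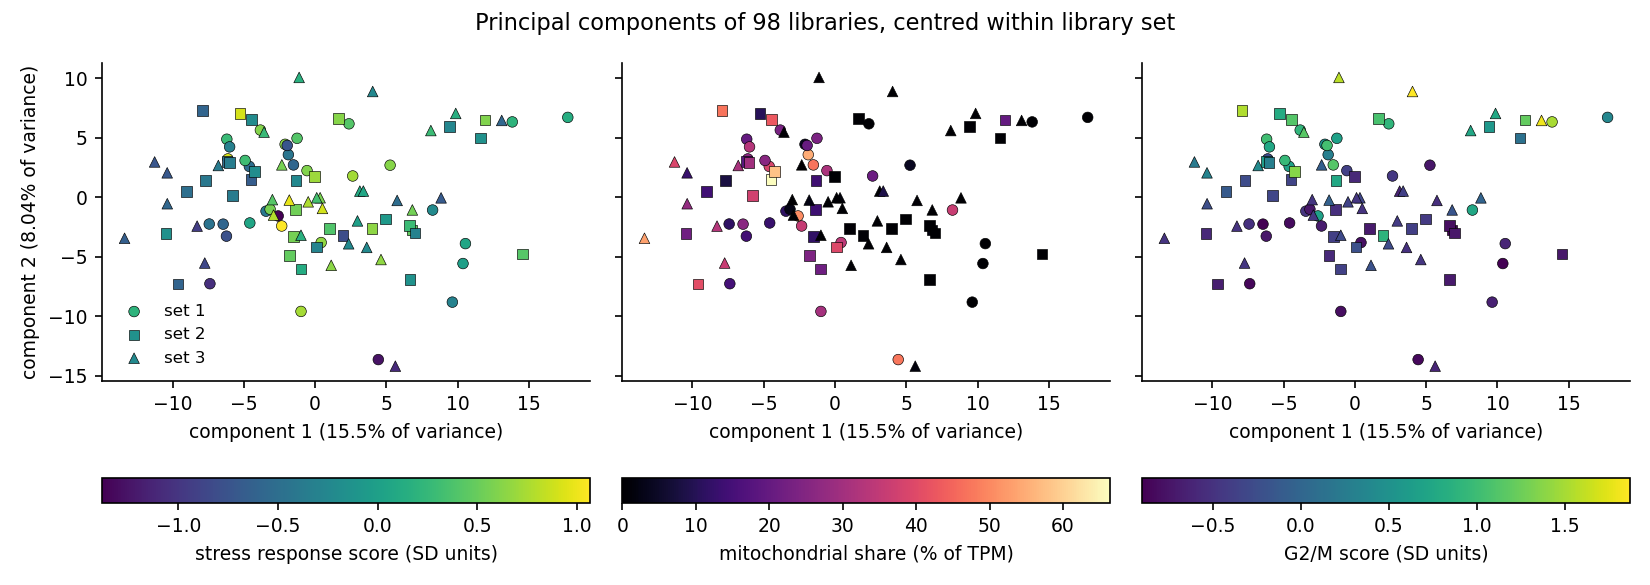
Components 1 and 2 (axes) of 98 Ecad- libraries, marked by library set and coloured by stress response score, mitochondrial share or G2/M score. Libraries with a low mitochondrial share lie mostly to the right on component 1 (15.5% of variance), and those with a high G2/M score lie high on component 2 (8.04%).

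The 3 genes that followed B2m, the light chain of MHC class I, most closely encode lysosomal proteins. B2m ran from 0 over 458 to 3256 TPM and was above 0 in 96 of 97 cells. They were Ctsa (0.58, 0.53 and 0.57), Lamp1 (0.50, 0.67 and 0.52) and Tpp1 (0.51, 0.55 and 0.47), and it correlated with the lysosome score at 0.44, 0.59 and 0.62. Of 10 tested class I genes 1 followed the others in each set, H2-D1 at 0.40, 0.49 and 0.30, against 0.851% of tested genes. H2-K1, at 0.25, 0.32 and 0.29, lay just below the line, and Tapbpl did not follow, at -0.02, -0.04 and -0.05. Of 6 tested interferon response genes 0 followed each other, against 0.369% of tested genes, and of 16 NF-kB and cytokine genes 1 did (Nfkbia), also against 0.369%.

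Of 27 oxidative stress genes 14 followed the others against 5.96% of tested genes, led by Gstm1, Taldo1 and G6pdx; Hmox1, haem oxygenase, stood apart at 0.05, -0.34 and -0.19. Of 28 hypoxia and glycolysis genes 11 did against 2.5%, led by the glycolytic enzymes Tpi1, Aldoa, Gpi1 and Ldha, while Kdm3a, a hypoxia target, followed least on average. Ndrg1, also on that list, stood at 0.39, -0.34 and 0.21 with the other members. Immediate early genes counted 8 of 21 against 0.539%, led by Fos, Dusp1 and Junb. Heat shock genes counted 7 of 21 against 2.47%, led by Hspd1 and Ahsa1, and proteasome genes 10 of 30 against 3.26%, led by Psmc6 and Psmd14. Nuclear genes of the respiratory chain counted 12 of 52 against 1.73%, led by Atp5o and Sdhc. Of 18 p53 targets and cell cycle inhibitors 1 followed the others (Pmaip1) against 0.879%. Cdkn1a, also on that list, was closest to Slc3a2, the heavy chain of amino acid transporters (0.48, 0.59 and 0.59), and was opposed to Gsta4, Plac8 and Lgals2.

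The sets differed in level for some programmes. For the median tested gene the set means spanned 0.40 of the SD within a set, and 261 genes (3.70%) spanned at least 1 SD. The 10 named genes with the widest span were Grip2, Rpl10-ps1, Rps27, Arpc1b, Scd2, Zrsr1, Rpl38-ps2, Rpl34, Rpl37 and Cdh17. Because the span is divided by the SD within a set, genes of small SD such as Grip2 and Zrsr1 rank high in it. Scd2 had mean log2 levels of 5.61, 4.29 and 1.68 in sets 1, 2 and 3 of Ecad- cells, beside 6.97, 6.56 and 6.77 for the Ecad+ fraction. Cdh17, the intestinal cadherin, had 4.74, 4.37 and 1.03 in Ecad- and 6.59, 7.58 and 6.22 in Ecad+ cells. For Rpl10-ps1, a ribosomal pseudogene, the values were 6.85, 1.15 and 7.36 in Ecad- and 7.45, 1.54 and 8.31 in Ecad+, so its low set was the same in both fractions. The cholesterol list deviated from its mean over the sets by a median of 1.02, 0.26 and -1.10 on the log2 scale and the G2/M list by 0.70, 0.16 and -0.88, where all tested genes deviated by 0.10, 0.13 and -0.25. Set 3, with the lowest values for these lists, is also the set with 22 of 33 low-share libraries, and the part of that share in these levels was not tested.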

How the data were processed

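The data are 1 table for the whole series. Per the file headers and the values, the authors deposited log2 values of TPM plus 1 per gene and library. Kallisto, FastQC 0.11.5 and the mm10 build are named in the submitters' processing notes; the step from transcripts to genes is not given in the sources used here. From the log2 values TPM was computed back for levels. For variation and co-variation each cell was rescaled to a total of 1000000 without mitochondrially encoded genes and taken as log2(value + 1). Tested genes had a mean of at least 5 TPM over Ecad- libraries and were above 0 in 25% or more of each set's libraries. A variable gene had an SD whose excess over the running median of 201 genes was in the top 5% in each set. No test was run, since each fraction is 1 sample; p-values and intervals over cells are not given, and intervals on motif shares cover counting error only. Libraries correlated above 0.97 were averaged. Members and gene lists were chosen with earlier results of these data known, and 6 of 856 list entries were not analysed here. Named genes were the given markers with Cdh1, the 20 highest in level, the 20 most variable, for each list up to 4 closest members and the loosest, for 11 anchor genes the 8 closest and 3 most opposed, 10 at each end of a component, and 10 with the widest span between sets; other genes named, among them Gm10197, the members listed in the stress response and the motif holders outside the lists, were chosen after their values were seen. Promoters came from RefSeq (GRCm38.p6) and coordinates from GENCODE. Scripts used Python 3.11.15, NumPy 2.4.6, pandas 2.3.3, SciPy 1.17.1 and Matplotlib 3.10.9 and were tested on simulated data. Alternatives changed the scale, pseudocount, floor, correlation, cells, sets and number of genes above 0. Some items the naming rule selects are not reported here.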

Additional observations from a re-analysis of the deposited data

How the results depend on the processing

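For 8 results (co-variation within 4 lists, 3 correlations between scores, and the number of variable genes) 95 values were computed under other settings, a correlation being judged against 1 SD over the library sets and the gene count against 1.5 times its main value. Of the 95, 85 stayed within these limits, 9 moved further and 1 changed sign. Leaving out 1 set cannot move a mean over the 3 sets by their SD. For correlations those settings could thus only stay within the limit or change sign. The limit was also wide for the stress response and epithelial scores, with an SD of 0.33 around an r of -0.08. The count of 85 is therefore no measure of how firm the results are. The mean r within the lysosome list was 0.29; it was 0.36 on TPM as deposited and 0.22 on residuals after a fit on the number of genes above 0. That of the G2/M list went from 0.55 to 0.44 among libraries with a mitochondrial share of at least 1%, and that of the epithelial list from 0.17 to 0.24 with a floor of 20 TPM. The r of the stress response and G2/M scores was -0.10; it was -0.25 on residuals and -0.021 among libraries with a share of at least 1%. The r of the stress response and epithelial scores went from -0.08 to 0.060 without library set 3. The count of variable genes was 108; it was 52 with a floor of 20 TPM, 163 without set 2 and 170 without set 3, where a gene had to pass in fewer sets. The share of followers with TCACGTG was 18.2% and, with r of at least 0.5, 30.6%. Leaving out the 10% of libraries with the fewest genes, and the settings for the promoter share, were chosen after seeing the data. The cause of the other moves was not tested. No paired analysis was possible because the numbers in the labels only name single cells and no comparison was tested. The mean level of Ddit3 over cells was 562 TPM, its median 264 TPM, and its mean among libraries with a share of at least 1% 229 TPM. Depth is unknown, so a value of 0 cannot be told from a gene missed at low depth.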

Other observations

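Gm10800, a gene model without a proper name that was chosen after its values were seen, had a mean of 2762 TPM in Ecad- cells and a median of 8.97 TPM. Its highest cell stood at 160362 TPM, and it ranked 319, 8 and 763 by mean level in sets 1, 2 and 3 and 4714 in Ecad+ cells.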
